A study of Homo sapiens with 24 samples.

Results

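The RNA levels of 10 genes of the Hippo pathway and its YAP/TEAD transcription factors were followed in high-grade serous ovarian carcinoma cells under 8 conditions. The genes were taken from a list of names: the coactivators YAP1 and WWTR1 (TAZ), the DNA-binding factors TEAD1 and TEAD4, the kinase LATS2, the angiomotins AMOTL1 and AMOTL2, the LIM protein AJUBA, and the target genes ANKRD1 and AXL. All 10 were found by symbol among the 28277 genes of each count table, and all 10 had enough counts to be tested in both.

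PEO1 and PEO4 are an established pair of cell lines with a common donor, PEO1 predating and PEO4 following the tumour's resistance to combined chemotherapy with cisplatin. The first table holds 6 libraries, 3 of PEO1 cells with deficient BRCA2, a gene of DNA break repair, and 3 of PEO4 cells, none of them treated. The second holds 18 libraries of PEO1BRCA+, a PEO1 derivative in which BRCA2 is expressed again after a spontaneous reversion, and of PEO4, with 3 libraries each of untreated cells and of cells given 5 µM pyridostatin (PDS) for 2 or 6 h. PDS is a small molecule that binds and stabilises G-quadruplexes, 4-stranded structures of guanine-rich nucleic acid. The lines differ in origin, drug history and, in the first table, BRCA2 status, and each is 1 line, so these features cannot be told apart. The tables were scaled separately, and levels were not compared across them.

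In the Hippo pathway, a kinase cascade ending in LATS1 and LATS2 phosphorylates YAP1 and WWTR1 and keeps them out of the nucleus. When the cascade is inactive, both coactivators enter the nucleus and bind TEAD factors, which carry the DNA-binding domain, to switch on genes of growth, adhesion and matrix. The pathway is regulated largely at the level of protein modification and location, which RNA counts do not measure. In ovarian and other carcinomas, YAP1 activity is known for its links with proliferation, migration and drug tolerance.

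TEAD factors bind the letters GGAATG, so promoters were searched for them on both strands, in RefSeq windows of GRCh38.p14 from 250 bases before to 50 bases after the start site. Of the 10 genes, 8 matched the table with 12 promoters, and TEAD1 and TEAD4 had no entry. GGAATG occurred at least once in a promoter of ANKRD1, AMOTL2, LATS2, YAP1, AJUBA and AXL, and in 14.0% of all 35116 promoters. AMOTL2, AJUBA and AXL had it in 1 of their 2 promoters, and WWTR1 in neither of its 2. The share counts promoters and not genes, so the 2 tallies are unlike. The ANKRD1 promoter held 2 matches, at 220 and 128 bases before the start site, and 1.37% of all promoters held at least 2. It also held TGANTCA, the letters bound by AP-1, at 195 bases before the start, and this motif occurred in 7.71% of promoters. AMOTL2 had 1 match 69 bases before the start of 1 of its 2 promoters, and LATS2 had 1 match 9 bases after the first transcribed base. These 3 are shown because ANKRD1, AMOTL2 and LATS2 each had their highest level of the second table in PEO4 at 2 h of PDS. Of the other genes with GGAATG, AXL lay higher in PEO4 at 2 h than untreated, and YAP1 and AJUBA lay lower. Of those searched without a match, WWTR1 lay higher and AMOTL1 lower. Capitals mark GGAATG or its reverse complement.
ANKRD1 chr10:90921088-90921337 (- strand): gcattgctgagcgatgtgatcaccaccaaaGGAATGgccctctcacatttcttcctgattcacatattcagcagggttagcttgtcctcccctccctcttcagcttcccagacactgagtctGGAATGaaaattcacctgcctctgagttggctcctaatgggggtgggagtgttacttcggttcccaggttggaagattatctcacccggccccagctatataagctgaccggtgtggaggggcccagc
AMOTL2 chr3:134374448-134374697 (- strand): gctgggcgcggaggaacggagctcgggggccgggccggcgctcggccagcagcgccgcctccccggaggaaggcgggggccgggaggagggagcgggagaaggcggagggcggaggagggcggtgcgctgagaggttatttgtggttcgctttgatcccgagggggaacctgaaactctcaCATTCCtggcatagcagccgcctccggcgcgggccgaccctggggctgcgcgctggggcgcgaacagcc
LATS2 chr13:21061562-21061587 (- strand): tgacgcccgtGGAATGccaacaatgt
The ANKRD1 and AMOTL2 stretches are the 250 bases before the start site, and the LATS2 stretch is 26 bases around its match. Because PDS binds G-quadruplexes, the windows were also searched on both strands for 4 runs of at least 3 G with gaps of 1 to 7 bases. Such runs were found in a promoter of AMOTL1, AMOTL2, YAP1 and AJUBA, for AMOTL2 and AJUBA in 1 of 2 promoters. They were not found in these windows of ANKRD1, LATS2, WWTR1 or AXL. Of all promoters, counted singly and not by gene, 25.0% held such runs. A match describes the letters only. The counts do not tell which start site of a gene was used.

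Counts of the genes in each comparison are read against all genes tested. A gene was called where edgeR's quasi-likelihood test gave a Benjamini-Hochberg adjusted p under 0.05 and the absolute log2 fold change was over 1, and the words rose and fell below need only the first. Between untreated PEO4 and BRCA2-deficient PEO1, 2 of the 10 genes were called, where 25.8% of all genes were. Between untreated PEO4 and PEO1BRCA+, 2 were called (24.8% of all genes), after 2 h of PDS 2 were called (26.5% of all genes), and after 6 h none was (23.0%). PDS led to few calls in PEO1BRCA+, with 0 of 10 genes at 2 h (7.57% of all genes), 1 at 6 h (8.13%) and 0 between 2 and 6 h (0.170%). In PEO4, 2 genes were called at 2 h (17.4%), 1 at 6 h (22.6%) and 3 between 2 and 6 h (12.0%). The response of PEO4 was called different from that of PEO1BRCA+ for 2 genes at 2 h (11.0%) and for 2 at 6 h (14.8%). By the adjusted p alone, the count of the 10 genes was 9 for PEO4 against BRCA2-deficient PEO1 (61.6% of all genes), and 8 against PEO1BRCA+ untreated (68.6%), at 2 h (72.9%) and at 6 h (68.6%). It was 8, 6 and 3 in PEO1BRCA+ at 2 h (52.6%), at 6 h (53.0%) and from 2 to 6 h (6.94%), and 9, 9 and 10 in PEO4 at the same steps (65.3%, 69.8% and 60.1%). The interaction passed it for 4 genes at 2 h (37.3%) and 8 at 6 h (47.4%). Differences under the fold limit were thus common for the 10 genes and for all genes alike, and calls were few. The calls fell on AJUBA, ANKRD1, AXL and TEAD4, while the other 6 genes were not called in any of the 12 comparisons.

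**Figure D1:**
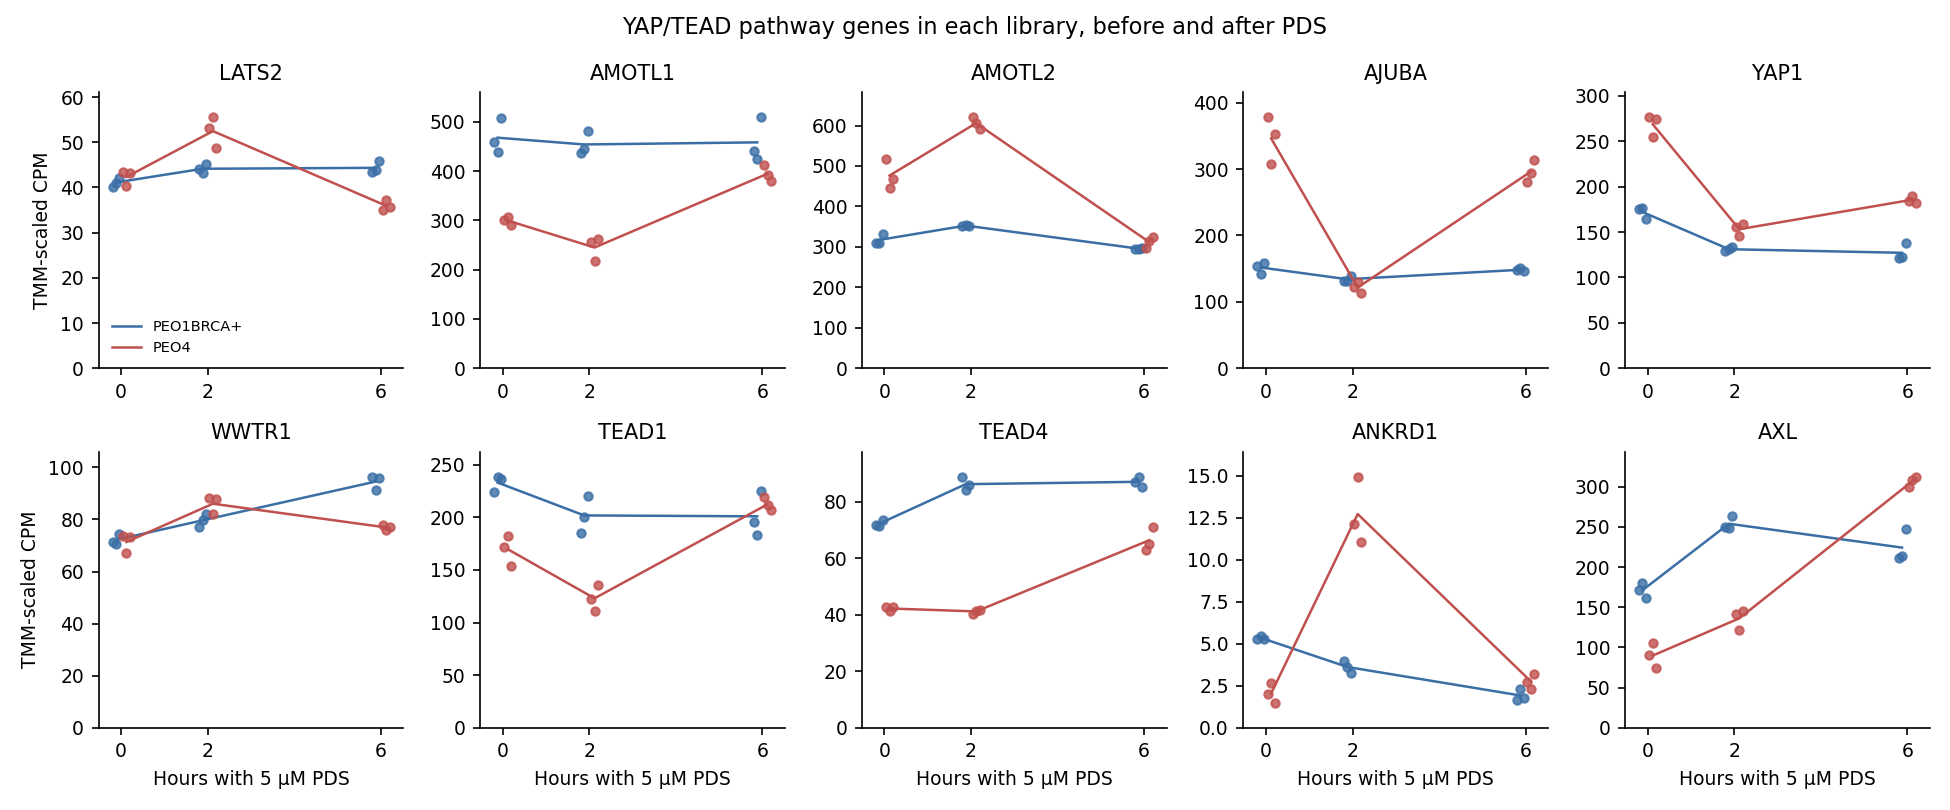
TMM-scaled CPM (vertical axis from 0) of the 10 genes in each of the 18 libraries of the second table, by hours with 5 µM PDS. Points are single libraries, shifted sideways for legibility, and lines join the means of 3 libraries of PEO1BRCA+ (blue) and PEO4 (red). ANKRD1 in PEO4 reached 11.1 to 14.95 CPM at 2 h against 1.47 to 2.66 CPM untreated, and AJUBA in PEO4 dropped to between 113 and 130 CPM at 2 h.

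Levels are given as CPM, counts scaled to a common library total after TMM (trimmed mean of M-values) adjustment, per library or as means ± SD of 3 libraries. The second table held fewer counts in untreated libraries (18699929 to 22375644) than in treated ones (33260167 to 43713947), and a larger share on ribosomal RNA genes, 0.217% to 0.474% against 0.0164% to 0.0369%. The comparisons of treated with untreated cells share these differences, and their part in those results was not tested. The comparisons of 6 h with 2 h, and those between the lines at 1 time, do not set untreated against treated libraries. The 2 h and 6 h comparisons of a line share its untreated libraries. In bulk RNA, fewer cells that express a gene and less RNA per cell cannot be told apart.

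ANKRD1 (chr10:90912096-90921087), a nuclear ankyrin repeat protein and a classical YAP/TEAD target, was lower in untreated PEO4 than in PEO1 in both tables and rose for a short time in PEO4 under PDS. In the first table, the BRCA2-deficient PEO1 libraries held 10.1, 9.96 and 11.3 CPM (482, 373 and 603 counts) and the PEO4 libraries 0.370, 1.82 and 1.01 CPM (24, 64 and 33 counts). The groups did not overlap, and ANKRD1 was 10.5-fold lower in PEO4 (log2 fold change -3.39, SE 0.430, adjusted p = 0.00016, edgeR). The PEO4 libraries spread widely at these low counts, and leaving out 1 library gave values from -4.07 to -2.87. In the second table, untreated PEO1BRCA+ libraries held 5.27, 5.50 and 5.31 CPM and untreated PEO4 libraries 1.99, 2.66 and 1.47 CPM. Again no library overlapped, with a 2.64-fold lower level in PEO4 (log2 fold change -1.40, SE 0.191, adjusted p = 4.9e-07, edgeR).

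After 2 h of PDS, ANKRD1 stood at 12.1, 14.95 and 11.1 CPM (437, 528 and 462 counts) in the PEO4 libraries, above all 15 other libraries of the table. This was 6.25-fold over untreated PEO4 (log2 fold change 2.64, SE 0.173, adjusted p = 2.4e-12, edgeR). At 6 h the PEO4 libraries were back at 2.74, 2.32 and 3.23 CPM, which overlapped the untreated range, and the fall from 2 h was 4.59-fold (adjusted p = 2.9e-11, edgeR). The remaining difference between 6 h and untreated PEO4 was 0.45 on the log2 scale (adjusted p = 0.048, edgeR), and with 1 library left out it ranged from 0.264 (without untreated PEO4 replicate 3) to 0.675 (without untreated PEO4 replicate 2), with adjusted p of up to 0.268. In PEO1BRCA+ the gene moved the other way, to 3.97, 3.62 and 3.28 CPM at 2 h and 1.68, 2.34 and 1.76 CPM at 6 h. Each time point lay wholly below the one before, and at 6 h the level was 2.79-fold below untreated cells (log2 fold change -1.48, SE 0.178, adjusted p = 1.8e-07, edgeR). The line difference in the response was 3.21 on the log2 scale at 2 h (SE 0.241, adjusted p = 2e-10) and 1.93 at 6 h (SE 0.265, adjusted p = 2.2e-06) by the interaction term in edgeR. PEO4 held 3.51-fold more ANKRD1 than PEO1BRCA+ at 2 h (adjusted p = 6.1e-11, edgeR). At 6 h, with 2.77 ± 0.457 CPM in PEO4 and 1.93 ± 0.356 CPM in PEO1BRCA+, the single libraries overlapped.

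AXL (chr19:41219223-41261766), a receptor tyrosine kinase for GAS6 and a YAP target linked with invasion and drug resistance, was lower in untreated PEO4 and rose with PDS until it passed the PEO1BRCA+ level. The BRCA2-deficient PEO1 libraries held 201, 191 and 187 CPM and the matching PEO4 libraries 23.1, 36.2 and 26.4 CPM. The groups were far apart, with a 6.78-fold lower level in PEO4 (log2 fold change -2.76, SE 0.148, adjusted p = 1.4e-07, edgeR). Untreated PEO1BRCA+ libraries held 172, 180 and 161 CPM and untreated PEO4 libraries 90.6, 105 and 74.1 CPM. Here the gap was smaller, with a log2 fold change of -0.93 (SE 0.0958, adjusted p = 4.2e-08, edgeR) that missed the fold limit, and it reached -1.05 and was called when PEO4 replicate 2 was left out.

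In PEO4, AXL stood at 142, 122 and 145 CPM at 2 h and at 300, 309 and 313 CPM at 6 h. The 3 time points did not overlap, and the level at 6 h was 3.42-fold over untreated cells (log2 fold change 1.77, SE 0.0965, adjusted p = 3.5e-12, edgeR). The later step was the larger, since the change from 2 to 6 h was 2.25-fold (adjusted p = 3.2e-09, edgeR) and that from 0 to 2 h 1.52-fold (adjusted p = 1.6e-05, edgeR). In PEO1BRCA+, AXL was 250, 249 and 263 CPM at 2 h and 211, 214 and 248 CPM at 6 h. Both times lay above the untreated libraries, by 0.57 on the log2 scale at 2 h (adjusted p = 3.9e-05) and 0.39 at 6 h (adjusted p = 0.0016). The 2 h responses of the lines differed by 0.03 (SE 0.133, adjusted p = 0.89, edgeR), which does not show that they were equal, while at 6 h the response of PEO4 exceeded that of PEO1BRCA+ by 1.38 on the log2 scale (SE 0.133, adjusted p = 8.5e-08, edgeR). PEO4 at 6 h held more AXL than any other condition of the table, and 1.37-fold more than PEO1BRCA+ at 6 h (adjusted p = 0.00022, edgeR).

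AJUBA (chr14:22971177-22982551), a LIM domain protein that binds LATS kinases and restrains their action on YAP1, was higher in untreated PEO4 and dropped there at 2 h. In the first table it lay at 140, 170 and 159 CPM in PEO1 and at 232, 240 and 244 CPM in PEO4, a log2 fold change of 0.61 (SE 0.0819, adjusted p = 3.4e-05, edgeR). In the second, untreated PEO1BRCA+ libraries held 155, 142 and 158 CPM and untreated PEO4 libraries 378, 308 and 352 CPM. All PEO4 libraries were higher, and the difference of 2.28-fold was called (log2 fold change 1.19, SE 0.0685, adjusted p = 7.8e-14, edgeR). After 2 h of PDS the PEO4 libraries fell to 122, 130 and 113 CPM, below every PEO1BRCA+ library, which stood at 132, 131 and 139 CPM. The fall in PEO4 was 2.85-fold (log2 fold change -1.51, SE 0.0687, adjusted p = 3.1e-15, edgeR). At 6 h PEO4 had returned to 281, 293 and 314 CPM, a 2.44-fold rise from 2 h (adjusted p = 3.5e-13, edgeR), and overlapped its untreated libraries. The level at 6 h was still below untreated PEO4, by -0.23 on the log2 scale (adjusted p = 0.0044, edgeR). PEO1BRCA+ changed little, with a log2 fold change of -0.18 at 2 h (adjusted p = 0.030) and -0.03 at 6 h (adjusted p = 0.70). The difference between the lines in the 2 h response was -1.33 on the log2 scale (SE 0.0961, adjusted p = 1.1e-10, interaction in edgeR). At 6 h PEO4 was again above PEO1BRCA+, by 0.998 on the log2 scale (adjusted p = 1.8e-12, edgeR), a value at the fold limit that was called in 3 of 6 fits without 1 library.

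**Figure D2:**
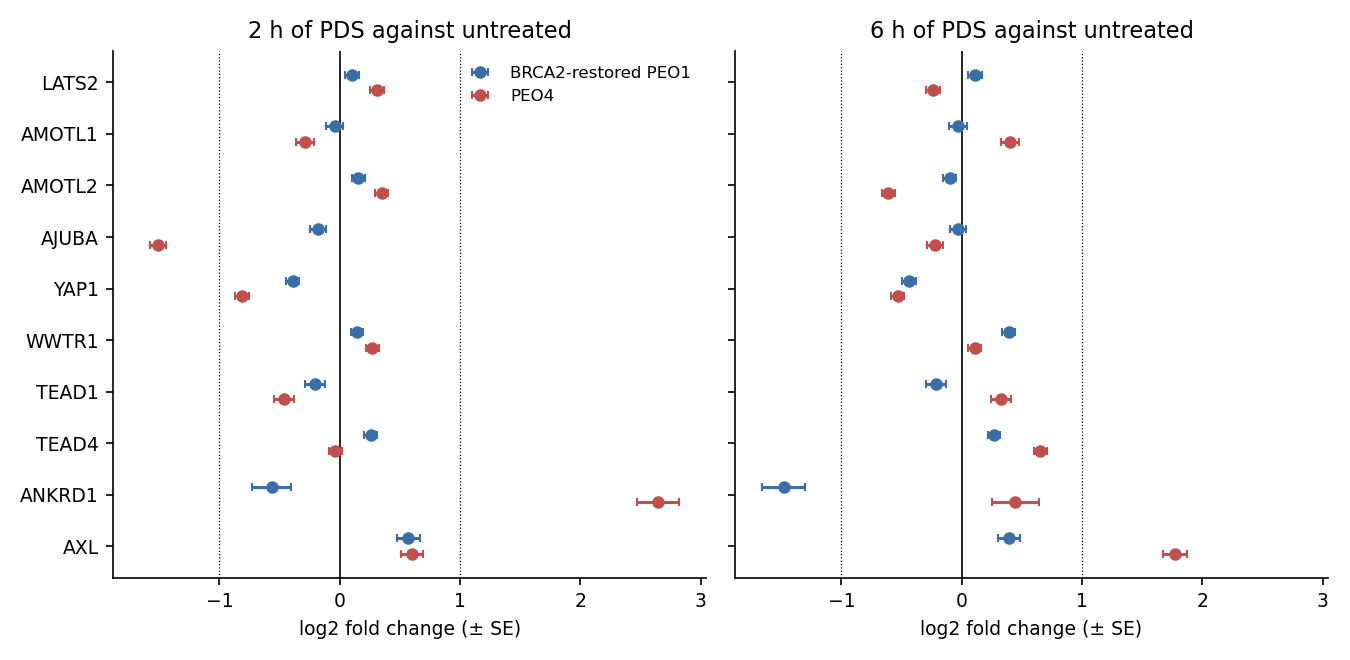
Log2 fold change (horizontal axis, bars ± SE from edgeR) of the 10 genes after 2 h and 6 h of PDS against untreated cells of the same line, with PEO1BRCA+ (drawn as BRCA2-restored PEO1) in blue and PEO4 in red. Dotted lines mark a log2 fold change of 1 in either direction. ANKRD1 (2.64) and AJUBA (-1.51) stand out in PEO4 at 2 h, and AXL (1.77) in PEO4 and ANKRD1 (-1.48) in PEO1BRCA+ at 6 h.

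YAP1 (chr11:102110447-102233424), the main coactivator of the pathway, was higher in PEO4 in both tables and fell with PDS in both lines. It lay at 247, 251 and 241 CPM in BRCA2-deficient PEO1 and 314, 283 and 286 CPM in PEO4, without overlap (log2 fold change 0.26, adjusted p = 0.0087, edgeR). Untreated PEO1BRCA+ had 175, 177 and 164 CPM and untreated PEO4 277, 255 and 275 CPM, a log2 difference of 0.64 (SE 0.0567, adjusted p = 2.7e-10, edgeR). At 2 h PEO4 stood at 155, 146 and 159 CPM, a fall of 1.76-fold (adjusted p = 6.9e-12, edgeR), and PEO1BRCA+ at 129, 131 and 133 CPM, a fall of 1.31-fold (adjusted p = 2.9e-06, edgeR). The fall was deeper in PEO4, by -0.42 on the log2 scale (SE 0.0798, adjusted p = 0.00019, interaction in edgeR). At 6 h PEO4 had risen to 186 ± 4.03 CPM and PEO1BRCA+ stayed at 127 ± 9.13 CPM, and the responses then differed by -0.10 (SE 0.0797, adjusted p = 0.34, edgeR). Every treated library of either line was below the untreated libraries of that line.

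WWTR1 (chr3:149517235-149724788), the second coactivator, did not follow YAP1. It was lower in PEO4 than in BRCA2-deficient PEO1, at 71.5 ± 5.41 against 97.2 ± 3.91 CPM (log2 fold change -0.44, adjusted p = 0.00029, edgeR), and its untreated libraries overlapped in the second table, at 71.3 ± 3.61 against 72.2 ± 2.17 CPM. With PDS it stood at 79.7 ± 2.50 CPM at 2 h and 94.6 ± 2.90 CPM at 6 h in PEO1BRCA+, a rise of 1.31-fold by 6 h (adjusted p = 1.1e-06, edgeR), and at 86.0 ± 3.37 and 76.9 ± 1.08 CPM in PEO4. In PEO4 the rise of 0.27 on the log2 scale at 2 h (adjusted p = 9e-05, edgeR) was followed by 0.11 at 6 h (adjusted p = 0.073, edgeR). Scaling by library totals turned the sign of the small values in PEO1BRCA+ at 2 h (0.14 to -0.005) and in PEO4 at 6 h (to -0.05). WWTR1 shares exon sequence with the antisense gene WWTR1-AS1, and the use of strand in counting is not given in the sources used here, so the reads of the pair cannot be told apart. Per kilobase of the canonical GENCODE transcript, untreated YAP1 stood at 31.9 CPM in PEO1BRCA+ and 49.8 CPM in PEO4, and WWTR1 at 14.3 and 14.2 CPM, so YAP1 was the more abundant coactivator RNA in both lines, with no overlap of libraries.

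Of the DNA-binding partners, TEAD4 (chr12:2959397-3040676) was lower in PEO4 than in PEO1 in all 4 line comparisons. It lay at 55.6, 61.5 and 56.3 CPM in BRCA2-deficient PEO1 and 32.4, 35.7 and 33.7 CPM in PEO4 (log2 fold change -0.77, SE 0.0806, adjusted p = 3.7e-06, edgeR). Untreated PEO1BRCA+ libraries held 71.7, 71.3 and 73.6 CPM and untreated PEO4 libraries 42.9, 41.2 and 42.6 CPM, again a log2 fold change of -0.77 (SE 0.0545, adjusted p = 4e-12, edgeR). At 2 h, PEO1BRCA+ had risen to 88.7, 84.1 and 85.8 CPM while PEO4 stood at 40.4, 41.3 and 41.8 CPM, so the gap widened to 2.09-fold and was called (log2 fold change -1.07, SE 0.0526, adjusted p = 3e-15, edgeR). At 6 h, PEO4 had risen to 62.9, 65.2 and 71.1 CPM, still below every PEO1BRCA+ library (87.0, 88.8 and 85.3 CPM). The 6 h rise in PEO4 was 1.57-fold (adjusted p = 1e-10) and exceeded that of PEO1BRCA+ by 0.38 on the log2 scale (SE 0.0750, adjusted p = 0.00017, interaction in edgeR). TEAD4 thus rose by 2 h in PEO1BRCA+, and in PEO4 the rise was measured at 6 h.

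TEAD1 (chr11:12674421-12944737) lay at 206 ± 9.98 CPM in BRCA2-deficient PEO1 and 227 ± 40.2 CPM in PEO4, with overlapping libraries (adjusted p = 0.32, edgeR). In the second table it was lower in untreated PEO4, at 170 ± 14.4 against 233 ± 7.51 CPM (log2 fold change -0.46, SE 0.0813, adjusted p = 2.9e-05, edgeR). In PEO4 it fell to 123 ± 12.6 CPM at 2 h (adjusted p = 3.1e-05) and then rose to 212 ± 6.17 CPM at 6 h, above its untreated level (log2 fold change 0.33, adjusted p = 0.0011, edgeR). In PEO1BRCA+ it fell to 202 ± 17.5 CPM at 2 h and was 201 ± 21.6 CPM at 6 h (adjusted p = 0.034 and 0.030, edgeR), with libraries at 6 h that overlapped the untreated ones. Without 1 library these falls were as small as -0.138 and -0.139, with adjusted p of up to 0.208 and 0.198. The 6 h responses of the lines differed by 0.54 (SE 0.114, adjusted p = 0.00047, interaction in edgeR). Per kilobase, TEAD4 led the family in untreated PEO1BRCA+ with 42.2 CPM, before TEAD1 with 24.7, TEAD3 with 10.3 and TEAD2 with 2.11 CPM. In untreated PEO4 the order changed to TEAD3 with 27.2, TEAD4 with 24.7, TEAD1 with 16.4 to 19.4 in single libraries and TEAD2 with 0.128 CPM per kilobase, and the TEAD3 and TEAD4 libraries overlapped. These levels rest on 1 transcript length per gene.

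LATS2 (chr13:20973036-21061586), a kinase that phosphorylates YAP1 and is itself a YAP target, changed little. It was lower in PEO4 than in BRCA2-deficient PEO1, at 32.4 ± 2.09 against 42.6 ± 3.31 CPM (log2 fold change -0.39, adjusted p = 0.0022, edgeR), and its untreated libraries overlapped in the second table, at 42.3 ± 1.77 and 41.1 ± 1.04 CPM. In PEO4 it rose to 52.5 ± 3.44 CPM at 2 h (log2 fold change 0.31, adjusted p = 5.4e-05) and fell to 36.0 ± 1.11 CPM at 6 h, below untreated (log2 fold change -0.24, adjusted p = 0.0010, edgeR). In PEO1BRCA+ it was 44.1 ± 0.934 and 44.3 ± 1.30 CPM (adjusted p = 0.15 and 0.12, edgeR), and these 2 small differences turned sign under scaling by library totals. Per kilobase, untreated LATS2 stood at 7.41 and 7.63 CPM in PEO1BRCA+ and PEO4 and LATS1 at 7.96 and 6.64 CPM.

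The angiomotins, junction proteins that bind YAP1 and can hold it in the cytoplasm, diverged from each other. AMOTL2 (chr3:134355345-134375417), which is also a YAP target, was higher in PEO4 in both tables, at 286 ± 6.32 against 182 ± 15.7 CPM in the first (log2 fold change 0.66, adjusted p = 1.3e-05, edgeR) and 476 ± 36.5 against 317 ± 11.8 CPM in the second (0.59, adjusted p = 1e-09, edgeR). In PEO4 it rose to 621, 605 and 592 CPM at 2 h and fell to 297, 314 and 324 CPM at 6 h, below the untreated 516, 445 and 468 CPM. The log2 fold change was 0.35 at 2 h (adjusted p = 5.9e-06), -0.61 at 6 h (adjusted p = 5.2e-10) and -0.96 from 2 to 6 h (adjusted p = 1.5e-12, edgeR), the last just inside the fold limit and called under upper-quartile scaling (-1.01). In PEO1BRCA+ the libraries went from 310, 311 and 331 CPM to 352, 353 and 353 CPM at 2 h (adjusted p = 0.023, edgeR) and to 295, 294 and 297 CPM at 6 h. The fall from 2 to 6 h was there 0.26 on the log2 scale (adjusted p = 0.0050, edgeR), in the same direction as in PEO4.

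AMOTL1 (chr11:94706460-94876748) was the only gene of the 10 whose line difference had opposite and non-overlapping directions in the untreated pairs. It was higher in PEO4 than in BRCA2-deficient PEO1, with 322, 343 and 322 against 252, 267 and 250 CPM (log2 fold change 0.36, SE 0.0722, adjusted p = 0.00083, edgeR). It was lower in PEO4 than in PEO1BRCA+, with 302, 306 and 290 against 458, 438 and 507 CPM (log2 fold change -0.64, SE 0.0741, adjusted p = 3.2e-08, edgeR). The difference between the tables was not tested. In PEO4 it fell to 245 ± 24.3 CPM at 2 h and rose to 395 ± 16.2 CPM at 6 h (log2 fold change from untreated -0.29 and 0.40, adjusted p = 0.0014 and 3.6e-05, edgeR). In PEO1BRCA+ its libraries overlapped at all times, at 454 ± 24.1 CPM at 2 h and 458 ± 45.0 CPM at 6 h. Per kilobase, untreated PEO1BRCA+ held 65.2 CPM of AMOTL2, 52.1 CPM of AMOTL1 and 1.54 CPM of AMOT, and untreated PEO4 held 97.8, 33.3 and 2.60 CPM.

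**Figure D3:**
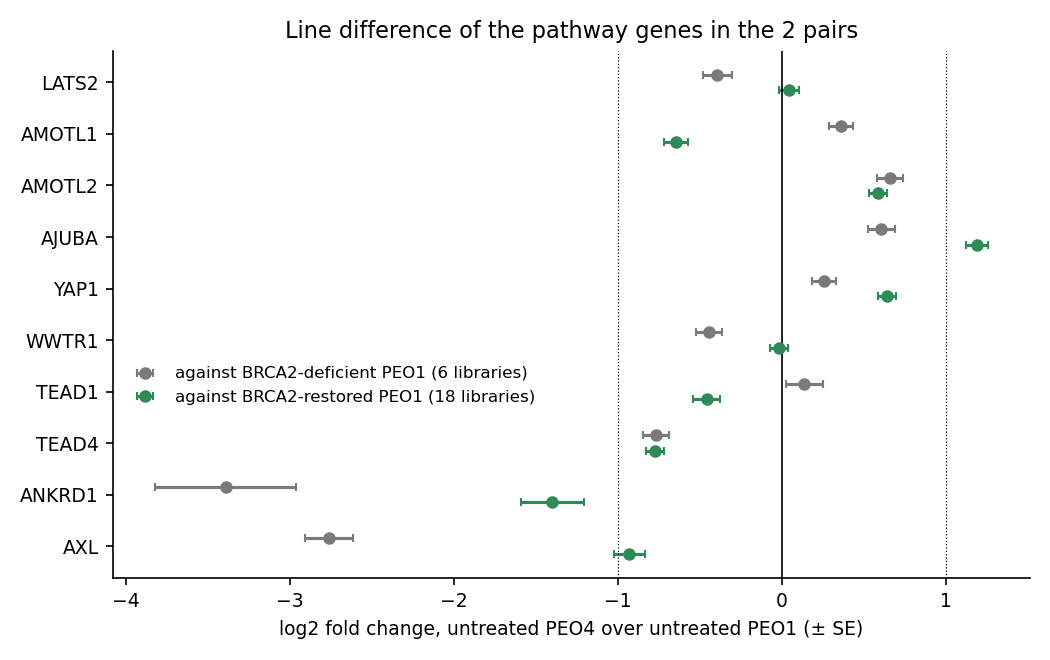
Log2 fold change of untreated PEO4 over untreated PEO1 (horizontal axis, bars ± SE from edgeR) for the 10 genes, against BRCA2-deficient PEO1 in the table of 6 libraries (grey) and against PEO1BRCA+ in the table of 18 (green). ANKRD1 lies at -3.39 and -1.40 and AXL at -2.76 and -0.93, AJUBA at 0.61 and 1.19, and AMOTL1 changes side, from 0.36 to -0.64.

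In PEO4 the 10 genes fell into different time courses, described here by whether the 3 libraries of a time lie wholly above or below those of another. From 0 to 2 h, AXL, AMOTL2, WWTR1, ANKRD1 and LATS2 lay higher and TEAD1, AMOTL1, AJUBA and YAP1 lower, so 9 of 10 genes did not overlap, against 64.2% of all genes tested. From 2 to 6 h all 10 did not overlap (68.0% of all genes), with AXL, TEAD1, TEAD4, AMOTL1, AJUBA and YAP1 higher and AMOTL2, WWTR1, ANKRD1 and LATS2 lower. Both steps share the 2 h libraries, so their directions are not independent of each other. The 2 h libraries lay wholly above those of both other times for AMOTL2, WWTR1, ANKRD1 and LATS2, and wholly below for TEAD1, AMOTL1, AJUBA and YAP1, while those of TEAD4 overlapped the untreated ones. The share of all genes with such a 2 h extreme was not computed, so it cannot be said to be particular to these genes. In PEO1BRCA+ 9 genes did not overlap from 0 to 2 h (61.8% of all genes) and 5 did not from 2 to 6 h (31.3%), with WWTR1 and AJUBA higher and AMOTL2, AXL and ANKRD1 lower in the later step.

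Of 18 further YAP/TEAD targets, all tested, 9 were called lower and none higher in PEO4 than in BRCA2-deficient PEO1, where 25.8% of all genes were called in either direction, with a median log2 fold change of -1.02 against -0.01 for all genes. Against PEO1BRCA+, 5 were called lower and none higher (24.8% of all genes in either direction), with a median of -0.66 against -0.001. By the size of the change these were led in the first table by TGFB2, a cytokine, and FOXF2, a mesenchymal transcription factor, which had 0 to 2 and 0 to 4 counts per PEO4 library of the first table against 73 to 172 and 546 to 788 in PEO1. F3, the coagulation tissue factor, followed with -3.44 in the first table. In the second, FOXF2 had 0 to 4 counts per untreated PEO4 library against 346 to 424, IGFBP3, a binding protein of insulin-like growth factors, was at -1.76 and NUAK2, a kinase, at -1.38.

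In PEO4 after 2 h of PDS, 3 of the 18 were called higher and 6 lower, where 17.4% of all genes were called in either direction, with a median log2 fold change of -0.48 against 0 for all genes, or -0.37 with FOXF2, which stayed at 0 to 5 counts per PEO4 library, at a floor of 3 counts. Chosen after their values were seen, CCN2 and CCN1, secreted matricellular proteins that are standard YAP targets, shared the 2 h peak of ANKRD1 in PEO4. CCN2 went from 88.5 ± 41.3 CPM to 606 ± 50.3 CPM at 2 h (log2 fold change 2.78, SE 0.307, adjusted p = 3.5e-06, edgeR) and 65.1 ± 4.42 CPM at 6 h in PEO4. CCN1 went from 147 ± 45.5 CPM to 760 ± 57.2 CPM (log2 fold change 2.37, SE 0.186, adjusted p = 8.5e-08, edgeR) and 234 ± 12.4 CPM. Both responses differed between the lines at 2 h, by 3.32 (adjusted p = 4.9e-05) and 2.02 (adjusted p = 3.4e-05) on the log2 scale in the interaction test. Unlike ANKRD1, CCN1 in PEO4 stayed above untreated at 6 h, at 98.6 to 109 against 41.4 to 76.4 CPM per kilobase. In PEO1BRCA+ the CCN1 libraries lay higher at 2 h than untreated, at 108 to 119 against 74.1 to 100 CPM per kilobase. The other called riser, NT5E, an ecto-nucleotidase, had a log2 fold change of 1.44 at 2 h and 1.37 at 6 h, above untreated at both times, as AXL was.

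At 6 h in PEO4, 2 of the 18 were called higher and 6 lower (22.6% of all genes in either direction, median -0.29 against -0.03), and the strongest were TGFB2 at -3.02, IGFBP3 at -2.26 and NUAK2 at -2.13. In PEO1BRCA+ 1 was called lower at 2 h (7.57% of all genes in either direction) and 2 at 6 h (8.13%), none higher, with medians of -0.08 and -0.07 against -0.03 for all genes at both times. The 2 at 6 h were RBMS3, an RNA-binding protein, at -1.71 and CCN2 at -1.25. The targets thus moved in both directions in PEO4 at 2 h, with ANKRD1, CCN1 and CCN2 up at the same time as TGFB2, IGFBP3 and NUAK2 were down. Between the lines, 2 of the 18 were called higher and 6 lower in PEO4 at 2 h (26.5% of all genes in either direction) and 1 higher and 5 lower at 6 h (23.0%). From 2 to 6 h, 2 were called higher (FOXF2 and TGFB2) and 2 lower (CCN2 and CCN1) in PEO4 (12.0%) and none in PEO1BRCA+ (0.170%). FOXF2 stood at 0 CPM in the PEO4 libraries at 2 h, so its rise rests on the floor. With FOXF2 at a floor of 3 counts its value was -0.39, and the list median was 0.095 in place of 0.273. The responses were called different for 6 of the 18 at 2 h, CCN2 and CCN1 upward and IGFBP3, FOXF2, CCDC80 and TGFB2 downward in PEO4 (11.0% of all genes), and for IGFBP3, NUAK2 and TGFB2, all downward, at 6 h (14.8%). The FOXF2 response in PEO4 sets 0 CPM at 2 h against at most 0.082 CPM per kilobase in an untreated library, so its direction is not informative.

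**Figure D4:**
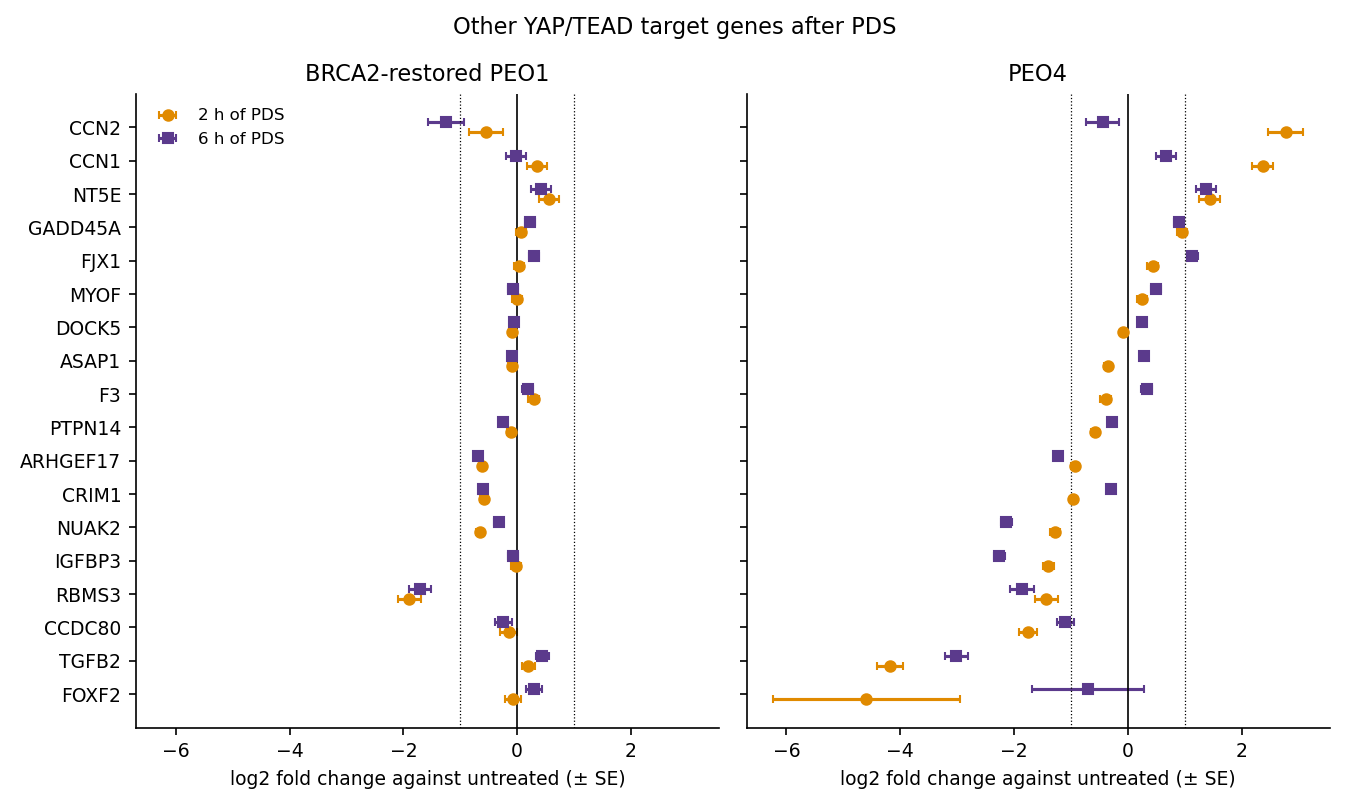
Log2 fold change against untreated cells (horizontal axis, bars ± SE from edgeR) of 18 further YAP/TEAD target genes after 2 h (orange circles) and 6 h (purple squares) of PDS, in PEO1BRCA+ (drawn as BRCA2-restored PEO1, left) and PEO4 (right). Genes are ordered by the 2 h value in PEO4, from CCN2 at 2.78 down to TGFB2 at -4.18 and FOXF2, whose PEO4 value rests on 0 to 5 counts per library. Dotted lines mark a log2 fold change of 1 in either direction.

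Upstream, 20 of 23 genes of the Hippo kinase arm had enough counts. NF2, DLG5 and SCRIB did not, with at most 0.0529, 0.0117 and 0.0295 CPM per kilobase in any library. Whether these low values come from expression or from counting was not tested. In PEO4 against BRCA2-deficient PEO1, 1 was called higher, DCHS1, a protocadherin, at 2.52 but with at most 115 counts per library, and 3 lower, led by FRMD6, a membrane-linked activator of the cascade, at -3.24 and SAV1, the scaffold of the MST kinases, at -1.96 (25.8% of all genes called, list median -0.28 against -0.01 for all genes). Against PEO1BRCA+, 2 were called lower, MAP4K4, a kinase that acts on LATS, at -1.62 and FRMD6 at -1.48 (24.8% of all genes called), with a median of -0.28 against -0.001. FRMD6 and MAP4K4 were called lower in both tables. Under PDS, AMOT fell in both lines, by 1.48 on the log2 scale in PEO1BRCA+ and 1.63 in PEO4 at 6 h, DCHS1 was at -1.47 in PEO1BRCA+ on 5 to 29 counts per library, and MAP4K4 rose by 1.53 in PEO4, with 2 of 20 genes called in each line, where 8.13% and 22.6% of all genes were. At 2 h, 1 was called lower in PEO1BRCA+ (AMOT, 7.57% of all genes called), and in PEO4 1 was called higher (MAP4K4) and 1 lower (AMOT, 17.4%). The list medians at 2 h were -0.10 in PEO1BRCA+ (-0.03 for all genes) and -0.47 in PEO4 (0 for all genes). At 6 h they were -0.11 in PEO1BRCA+ and 0.17 in PEO4, each against -0.03 for all genes. From 2 to 6 h the list median in PEO4 was 0.31 against -0.02 for all genes. Between the lines, 3 were called lower in PEO4 at 2 h (WWC1, FRMD6 and PTPN14, 26.5% of all genes called) and 1 at 6 h (FRMD6, 23.0%), and from 2 to 6 h 1 was called higher in PEO4 (WWC1, 12.0%) and none in PEO1BRCA+ (0.170%). PTPN14 is also one of the further YAP/TEAD targets above and is counted in both lists. For responses between lines, MAP4K4 was the only gene of the 20 called different, higher in PEO4 at 2 h and at 6 h (11.0% and 14.8% of all genes called).

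Of 7 other nuclear partners, 2 were called higher and 3 lower in PEO4 than in BRCA2-deficient PEO1 (25.8% of all genes called, list median -0.45 against -0.01), with RUNX2, an osteogenic factor that binds YAP1, at -4.49, VGLL3, a TEAD cofactor, at -3.57 and TEAD3 at 1.22. Against PEO1BRCA+, 1 was called higher and 2 lower (24.8% of all genes called, list median -0.09 against -0.001), with TEAD2 at -4.03 on 5 to 8 counts per PEO4 library, RUNX2 at -1.74 and TEAD3 at 1.40. TEAD2, RUNX2 and TEAD3 were called in the same direction in both tables. VGLL3, called lower in the first, lay higher in untreated PEO4 of the second without being called, at 0.544 to 0.689 against 0.282 to 0.364 CPM per kilobase. RUNX1, called higher in the first, was not called in the second, at 20.7 ± 3.16 CPM per kilobase in PEO4 and 22.6 ± 0.410 in PEO1BRCA+. At 2 h of PDS 1 was called lower in PEO1BRCA+ (VGLL3, 7.57% of all genes called) and 3 in PEO4 (17.4%, list median -0.86 against 0). After 6 h none of the 7 was called in PEO1BRCA+ (8.13%), and in PEO4 3 were called lower (22.6%, list median -0.66 against -0.03), VGLL1 and VGLL3, cofactors that compete with YAP1 for TEAD, at -1.80 and -1.30 and RUNX2 at -1.22. Between the lines, 1 was called higher and 3 lower in PEO4 at 2 h (26.5% of all genes called) and at 6 h (23.0%). From 2 to 6 h, TEAD2 was called lower in PEO4 (12.0% of all genes called), on low means of 0.167 and 0.0782 CPM per kilobase. None was called in PEO1BRCA+ over that step (0.170%). In the interactions VGLL1 was called lower in PEO4 at both times (11.0% and 14.8% of all genes called).

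The label of the lines was checked on markers. All 7 ovarian carcinoma markers, among them PAX8 and WT1, were detected in every group, with a summed level of 4126 to 13900 CPM per library. Most of this sum came from the keratins KRT7, KRT8 and KRT18, and not from PAX8 or WT1. Of the list, KRT7 was called lower in PEO4 in both tables (-2.71 and -1.66) and PAX8 higher in the first (1.56), where 25.8% and 24.8% of all genes were called. MUC16 fell with PDS at 6 h in PEO1BRCA+ (-2.59, with 8.13% of all genes called) and PEO4 (-3.40, with 22.6%). MUC16 was also called lower in PEO1BRCA+ at 2 h (7.57% of all genes called) and in PEO4 from 2 to 6 h (12.0%), and no other member was called in the PDS comparisons within a line. Between the lines, 1 member (MUC16) was called higher and 3 (KRT7, KRT8 and KRT18) lower in PEO4 at 2 h (26.5% of all genes called). At 6 h 1 (KRT7) was called lower (23.0%). The responses of KRT8 and KRT18 were called lower in PEO4 at 2 h (11.0% of all genes called) and none at 6 h (14.8%).

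Of 6 endothelial and leukocyte markers, PTPRC and CD3E had at most 3 counts in every library and CDH5 at most 10. Most of the sum came from CD68, a lysosomal protein, and it moved with PDS in PEO4, from 34.9 to 55.8 CPM untreated to 68.1 to 78.7 CPM at 2 h and 68.1 to 78.1 CPM at 6 h. In PEO1BRCA+ it was 33.9 to 36.7 CPM untreated, 40.6 to 44.5 CPM at 2 h and 42.2 to 44.3 CPM at 6 h, and in PEO1 and PEO4 of the first table it was 23.8 to 30.4 CPM and 30.8 to 53.9 CPM. Its part in the results was not tested. Of the 3 members with enough counts, none was called in the first table (25.8% of all genes called). PECAM1 and VWF were called higher in untreated PEO4 than in PEO1BRCA+, by 2.48 and 1.73 on the log2 scale (24.8% of all genes called). Both were called lower in PEO4 at 2 h (17.4% of all genes called) and at 6 h of PDS (22.6%), with PECAM1 at -3.58 and VWF at -4.17 at 6 h. They were low, with 15 to 43 and 11 to 21 counts per untreated PEO4 library and 0 to 8 and 0 to 2 at 6 h. In PEO1BRCA+ none was called at 2 h (7.57% of all genes called) or from 2 to 6 h (0.170%), and at 6 h PECAM1 was called lower on 0 to 1 counts per library (8.13%). Between the lines under PDS, none was called at 2 h (26.5% of all genes called) and VWF was called lower in PEO4 at 6 h (23.0%). VWF was further called lower in PEO4 from 2 to 6 h (12.0%) and lower in both interactions (11.0% and 14.8%).

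Of 7 fibroblast markers, THY1 carried most of the sum except in untreated PEO4 of the second table, where it stood at 8.65 ± 4.93 CPM, and the defining matrix genes DCN and LUM had at most 3 counts per library in all 5 conditions of the second table other than untreated PEO4. The sum moved with AXL and ANKRD1 between the untreated lines, at 386 to 426 CPM in BRCA2-deficient PEO1 against 80.0 to 111 CPM in PEO4 and at 110 to 133 CPM in PEO1BRCA+ against 41.6 to 51.6 CPM in PEO4, and its part in those results was not tested. In PEO4 it was 70.2 to 102 CPM at 2 h and 42.2 to 48.4 CPM at 6 h, and in PEO1BRCA+ 132 to 135 CPM and 112 to 116 CPM. Against BRCA2-deficient PEO1, 1 of the 4 tested members was called higher in PEO4, COL1A2 at 3.93. The other 3 were called lower, PDGFRB at -4.93, THY1 at -2.11 and COL1A1 at -1.83 (25.8% of all genes called in either direction). Against PEO1BRCA+, 3 of 5 were called higher, COL1A1, COL1A2 and COL3A1, and 1 lower, THY1 at -3.74 (24.8% of all genes called). COL1A1, the most abundant of the collagens there, thus changed side between the tables, with 22.1 ± 7.52 CPM in untreated PEO4 and 5.56 ± 1.02 CPM in untreated PEO1BRCA+. COL1A2 had 1 to 2 counts per untreated PEO1BRCA+ library against 39 to 344, and COL3A1 had 0 against 124 to 164.

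In PEO4 the collagens moved with PDS, with 1 fibroblast marker (THY1) called higher and 2 (COL1A1 and COL3A1) lower at 2 h (17.4% of all genes called). At 6 h 1 (THY1) was called higher and 3 lower (22.6%). COL1A1 stood at 5.87 ± 0.868 CPM at 2 h and 2.80 ± 0.599 CPM at 6 h, and the log2 fold changes at 6 h were -3.60 for COL3A1, -2.99 for COL1A1 and -2.96 for COL1A2. Their part in the PDS results of the 10 genes was not tested. From 2 to 6 h in PEO4, COL1A1, COL1A2 and PDGFRB were called lower (12.0% of all genes called). None was called within PEO1BRCA+ at 2 h (7.57%), at 6 h (8.13%) or between them (0.170%). PEO4 was called above PEO1BRCA+ for 3 members and below for 0 at 2 h (26.5% of all genes called), and for 2 and 1 at 6 h (23.0%). The interactions called THY1 higher at both times and COL1A1 lower at 6 h (11.0% of all genes called at 2 h and 14.8% at 6 h).

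Over the 18 libraries, 10263 genes were ranked by the likeness of their log2 CPM to YAP1 and to ANKRD1. Pseudogenes, genes without a RefSeq symbol and genes on chromosome 8 were passed over. Of the rest, those most like YAP1 were LOC112267934 (Pearson r 0.988), PCYOX1 (0.985) and BMPR1A, a BMP receptor (0.985). For ANKRD1 they were MREG (0.930), FBLIM1, an adhesion protein (0.906), and GAS2L3, a cytoskeletal linker (0.904). These correlations describe libraries of 6 conditions, which share line, time and depth. The genes were picked for likeness over these same libraries, so a like course follows from the choice and is no separate result. FBLIM1 stood at 16.4, 43.0 and 25.1 CPM in PEO4 at 0, 2 and 6 h, and BMPR1A at 74.0, 42.1 and 50.1 CPM.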

How the data were processed

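RNA-seq was analysed in 24 libraries, 3 per condition, which the series describes as biological replicates. Reads were checked with FastQC, trimmed with fastp, aligned to hg38 with STAR and counted with featureCounts by the authors. The deposited values are raw counts by gene, in whole numbers and not scaled. A directional library kit is stated for the lines of the first table, while the kit of the second, the strand setting and the annotation are not given in the sources used here. Lines without readable counts (2 and 1) were dropped. The test was the quasi-likelihood test of edgeR 4.0.16 (under R 4.3.3): filterByExpr (minimum count 10, minimum total 15; 15882 and 17020 genes kept), TMM scaling and a robust fit of 1 mean per condition to the whole table, p-values being adjusted by Benjamini-Hochberg across its tested genes. Library totals were 32528913 to 63882077 counts in the first table, and 18699929 to 43713947 in the second. The fits were also run on simulated counts, with planted changes larger than the fold limit in genes that were not low in counts. That run does not speak to smaller changes or to genes with few counts. No pair of replicates agreed within sampling noise.

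The 10 genes, the other gene lists and the comparisons were chosen with earlier results of these data known. All 10 genes are named. Of each other list, counts per direction are given, and the 3 called genes with the largest change between untreated lines and at 6 h of PDS are named. Genes like YAP1 and ANKRD1 were ranked by Pearson r of log2 CPM (prior count 4) among genes with a mean log2 CPM of at least 3. The genes passed over in that ranking are stated with its result. The alternatives were DESeq2 1.42.0, other scalings and filters, the groups compared alone, a replicate block, the p threshold alone and each library left out. Positions are from RefSeq (GRCh38.p14) and transcript lengths from GENCODE 44. Protein and phosphorylation data and G-quadruplex maps were not analysed here.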

Additional observations from a re-analysis of the deposited data

Results flagged for a closer look

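The response to PDS differed between PEO4 and PEO1BRCA+ by the interaction test in edgeR for AJUBA at 2 h (-1.33 on the log2 scale), for ANKRD1 at 2 h (3.21) and 6 h (1.93), and for AXL at 6 h (1.38). Across all genes tested, 11.0% and 14.8% were called in these interactions. Each of the 4 values stayed called in all 12 fits that left out 1 library of the groups involved.

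AMOTL1 differed between untreated lines in opposite directions in the 2 tables, with all PEO4 libraries above all BRCA2-deficient PEO1 libraries (log2 fold change 0.36) and all below the PEO1BRCA+ libraries (-0.64). The difference between the tables was not tested, since they were scaled and fitted separately.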

How the results depend on the processing

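No called value among the 10 genes lost its call or changed direction under any alternative run. With the adjusted p alone and no fold limit, the number of the 10 genes called was 9 for PEO4 against BRCA2-deficient PEO1, and 8, 8 and 8 for PEO4 against PEO1BRCA+ untreated, at 2 h and at 6 h. It was 8, 6 and 3 in PEO1BRCA+ at 2 h, at 6 h and between them, 9, 9 and 10 in PEO4, and 4 and 8 for the interactions at 2 and 6 h. For PEO4 against PEO1BRCA+ at 6 h of PDS, 1 gene (AJUBA) was called without a filter on low counts in place of 0, and 0 to 1 with 1 library left out (1 without PEO1BRCA+ 6 h replicate 2, PEO4 6 h replicate 1 or PEO4 6 h replicate 2). In PEO1BRCA+ between 2 and 6 h the range was 0 to 1, with ANKRD1 called at -1.07 without 6 h replicate 2. For all genes, the 29 called there ranged from 13 to 19 in the fits without 1 library that moved the count most and numbered 17 with a stricter filter.

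Scaling by library totals lowered the median of all genes by up to 0.16 on the log2 scale after PDS and raised the lower share of calls, in PEO4 at 6 h from 72.3% to 82.7%. Of 1910 values of the 10 genes under the alternatives, 32 turned sign, none of them called, and the largest main value among these was 0.14. Replicate numbers did not pair the samples: 1 of 48 same-numbered pairs correlated above 0.1 (median r 0.002), and the best match had the same number in 32 of 96 cases. A replicate block left the number of the 10 genes called at 2, 2, 2, 0, 0, 1, 0, 2, 1, 3, 2 and 2, as without the replicate block. Low counts limit ANKRD1 most, with 24 to 64 per PEO4 library of the first table.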
